A study of Mus musculus with 8 samples.

Results

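The intercalated disc is the end-to-end contact between heart muscle cells. Gap junctions, built from connexins, pass electrical current from cell to cell there, while adherens junctions anchor the contractile filaments and desmosomes anchor the desmin filaments. Loss-of-function variants of desmosomal genes are known in people as a cause of arrhythmogenic cardiomyopathy, and connexins set how fast an impulse crosses the ventricle.

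The genes described here are 10 such genes, chosen by name: the connexin genes Gja1, Gja4, Gja5 and Gjc1, the cadherin gene Cdh2, and Jup, Dsp, Dsg2, Dsc2 and Pkp2 of the desmosome. Every non-control probe whose gene name in the scanner tables is one of these was taken, 16 of 39429 probes. All 10 genes were among the 18093 genes tested, and 14 of the 16 probes stood well above background in all 8 samples. The other 2 probes, one of Gja5 and one of Dsg2, stood above it in 0 of 8 samples and are not used for any difference.

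The samples were left ventricles (septum, free wall and apex together) of adult male C57Bl/6j mice, an inbred strain. Low salt mice ate chow with 0.05% sodium for 8 weeks, normal salt mice ate chow with 0.4% sodium for the same time, and all were killed at 16 weeks of age under pentobarbital. There were 4 samples per diet, numbered 1 to 4 in the labels and taken as 1 mouse each, since the labels name no pool. If any shared a source, the p-values would measure only the spread between these samples. Each of the 4 two-colour Agilent arrays carried 2 mice of the same diet, mice 1 and 2 or mice 3 and 4, with odd-numbered mice in the dye Cy3 and even-numbered mice in Cy5. A difference between diets is therefore always also a difference between arrays.

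Over the 8 samples the median spot intensity was 116 to 147 and the median background 15.5 to 33.5. Between 53.0% and 66.3% of spots were well above background, and 0.393% to 0.695% were flagged as outliers. All 10 markers of ventricular muscle were detected, with a mean log2 intensity of 16.63 to 17.22 on low salt and 16.67 to 17.29 on normal salt, as the tissue label says. The signal was uneven over the arrays. The local trend of a spot is the median departure, within 10 rows and 5 columns of it, of a sample from the mean of all samples. Where the low salt and normal salt trends differed by over 0.2 the part is called uneven, and 9.88% of the genes tested lay there, among them 139 of 145 genes that passed as higher on low salt and 0 of 7 that passed as lower.

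None of the 10 genes differed between the diets past the threshold. In limma, with array as a random block, 0 of 10 had an adjusted p under 0.05, against 152 of 18093 genes (0.84%). With the mouse number added as a replicate block 237 genes passed, and again 0 of the 10. An unadjusted p under 0.05 was seen for Gja1, Cdh2 and Pkp2, 3 of 10, against 11.3% of all genes. In 2 of the 10, Gja1 and Pkp2, all 4 low salt mice lay above all 4 normal salt mice, which held for 8.03% of all genes. In 0 of the 10 did all low salt mice lie below, against 4.79% of all genes. None of the 10 reached a 1.5-fold difference of the same sign in each dye, against 3.29% of all genes. Over the 10 genes 5 values were higher and 5 lower on low salt, and their median log2 difference was -0.0018, against 0.013 over all genes tested. Because whole ventricle was homogenised, fewer cells of a type and less RNA per cell cannot be told apart in any of these values.

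**Figure D1:**
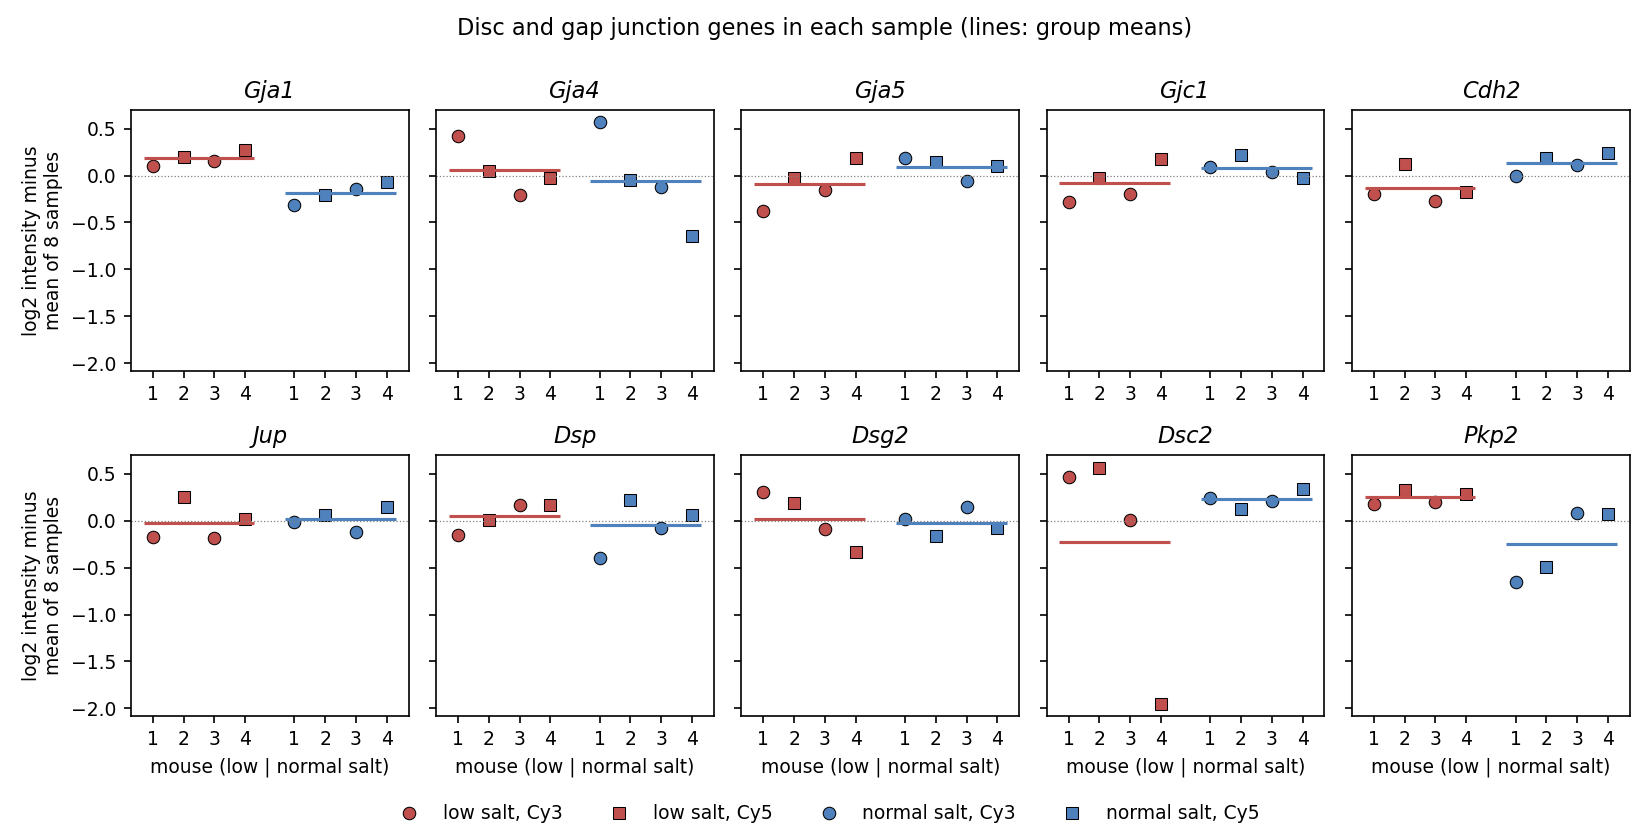
Log2 intensity of each gene in each mouse, less the mean of its 8 samples; circles are Cy3 and squares Cy5 samples, low salt mice stand left of normal salt mice, and lines mark group means. The groups of Gja1 and Pkp2 do not overlap, normal salt mice 1 and 2 lie low for Pkp2, and low salt mouse 4 lies far below the rest for Dsc2.

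Gja1 encodes the main connexin of working ventricular muscle. Its probe matches the plus strand at chr10:56109814-56109873 of mm9 and was printed on 10 spots of each array. The first 30 of its 60 bases, shown because its groups did not overlap, are given 5′ to 3′ in lower case with no base singled out.
Gja1: ctacacattaactcagaacttgtattctga

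Averaged over its spots, Gja1 read 10.82, 10.91, 10.87 and 10.99 (log2 intensity) in low salt mice 1 to 4, against 10.40, 10.51, 10.57 and 10.64 in normal salt mice 1 to 4. The lowest low salt mouse was above the highest normal salt mouse. The means were 10.90 ± 0.07 on low salt and 10.53 ± 0.10 on normal salt (SD, n = 4 each). Low salt was 0.36 ± 0.09 higher on the log2 scale (SE; limma adjusted p = 0.164), or 1.29-fold, with a 95% interval of 1.11-fold to 1.49-fold. It was 0.36 in the Cy3 mice and 0.37 in the Cy5 mice. Without the array block Gja1 passed (limma adjusted p = 0.0356), a fit that takes both mice of an array as independent. With both mice of each array averaged Gja1 did not pass (limma adjusted p = 0.481), in a fit where 0 of all 18093 genes passed.

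The spots of Gja1 repeat the measurement within each array and are not replicates of the diet. Of the 10 spots, 8 were unflagged in all samples, and all 8 read higher on low salt, by 0.10 to 0.40. In 6 of the 8 the groups did not overlap. Spots of the probe varied within a mouse by an SD of 0.15 to 0.43, and the largest SD belonged to normal salt mouse 4, where 1 spot read 9.64. That spot had been flagged in other samples. Over the 8 fully unflagged spots, a choice made after seeing the data, the values were 10.84, 10.93, 10.92 and 11.03 in low salt mice 1 to 4, against 10.44, 10.55, 10.60 and 10.82 in normal salt mice 1 to 4. Normal salt mouse 4 then lay just under low salt mouse 1, and the log2 difference was 0.33 (limma adjusted p = 0.287). The spots lay in even parts on average, with a local difference of 0.025, and the difference was 0.34 with the local trend subtracted.

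**Figure D2:**
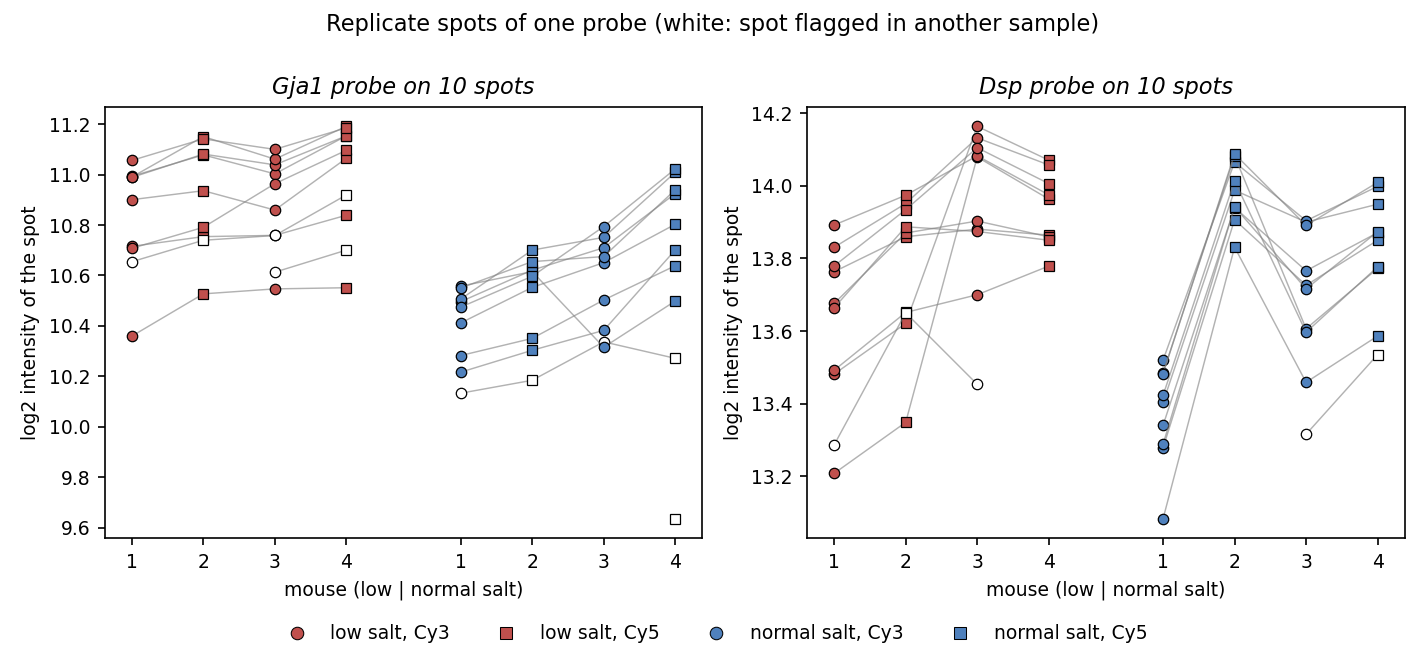
Log2 intensity of each of the 10 spots of the Gja1 probe (left) and of the main Dsp probe (right) in each mouse, low salt left of normal salt; lines join the readings of 1 spot within a diet, and white symbols are spots flagged in another sample. Most lines of Gja1 run side by side, low salt above normal salt, and for Dsp normal salt mouse 1 is the lowest normal salt mouse on every spot where it was read.

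Gja4 encodes a connexin of the endothelium, mainly of arteries. In low salt mice 1 to 4 it read 10.30, 9.93, 9.68 and 9.86, against 10.45, 9.83, 9.76 and 9.24 in normal salt mice 1 to 4. The groups overlapped, with the highest and the lowest value both on normal salt. Low salt minus normal salt came to 0.12 ± 0.28 (SE; limma adjusted p = 0.888), with a 95% interval of -0.52 to 0.76. Its probe, at chr4:126988848-126988907 (mm9, minus strand), stood at column 2 in an uneven part, where the local difference was 0.33. With the local trend subtracted the difference turned to -0.21 (limma adjusted p = 0.619).

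Gja5 encodes the connexin of atrial muscle, of the fast conduction fibres and of arterial endothelium. Both detected probes lie on the plus strand of mm9, at chr3:96857349-96857408 and chr3:96881280-96881339, with starts 23931 bases apart. They are shown because the first stood in an uneven part of the arrays and the second did not. The first 30 bases of each run 5′ to 3′.
Gja5 A_52_P525317: ccgacactggcactaagactctctgttctg
Gja5 A_55_P2178748: tgtgtgctttatctgtaaatattgattgca

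The first probe, which is the brighter and stands for the gene, read 7.69, 8.03, 7.91 and 8.25 in low salt mice 1 to 4, against 8.25, 8.21, 8.00 and 8.16 in normal salt mice 1 to 4. The groups overlapped, and low salt mouse 4 was level with the highest normal salt mouse. Their log2 difference was -0.19 ± 0.15 (SE; limma adjusted p = 0.643), with a 95% interval of -0.52 to 0.15. This spot lay at column 3, where the local trend was 0.17 to 0.25 on low salt and -0.38 to -0.12 on normal salt. With the trend subtracted the values became 7.44, 7.79, 7.73 and 8.08 on low salt and 8.37, 8.33, 8.39 and 8.49 on normal salt. The groups then did not overlap and the log2 difference was -0.64, without passing (limma adjusted p = 0.118). The share of all genes without overlap after this subtraction is not given here, so the lack of overlap has no background beside it.

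The second Gja5 probe read 7.01, 7.04, 7.04 and 6.91 in low salt mice 1 to 4, against 7.23, 7.30, 7.01 and 7.12 in normal salt mice 1 to 4. Its log2 difference was -0.17 where the local difference was -0.16, and -0.0015 with the local trend subtracted. The larger value of the first probe was not seen here, but a dim probe can understate a difference. The undetected Gja5 probe read 6.40 to 6.80, not far below this one. Beside these connexins, the 8 measured atrial markers of 9 listed were lower on low salt in 7 cases, with 0 past the threshold and a median of -0.54 (log2). The mean log2 intensity of the atrial markers was 9.94 to 11.27 on low salt and 10.25 to 12.08 on normal salt. Bmp10, which marks atrial muscle, did not pass the filter on dim probes, but other atrial markers were bright and varied widely between mice. Myl4 averaged 12.44 ± 1.21 on low salt and 14.41 ± 1.44 on normal salt (SD, n = 4 each). Sln averaged 10.28 ± 1.37 on low salt and 12.45 ± 1.63 on normal salt. Both were highest in normal salt mice 3 and 4. Nppa, the 1 atrial marker higher on low salt, averaged 15.72 on low salt and 15.32 on normal salt. Of the 10 conduction markers 5 were measured, 1 higher and 4 lower on low salt. Their means were 8.77 to 9.16 on low salt and 8.91 to 9.30 on normal salt. Hcn4, the pacemaker channel gene, did not pass the filter. Tbx3 did, with a mean of 10.16 on low salt and 10.80 on normal salt (limma adjusted p = 0.215). Irx3, the 1 conduction marker higher on low salt, averaged 10.82 on low salt and 10.69 on normal salt. Endothelial markers, 12 of 12 measured, averaged 11.02 to 11.28 on low salt and 11.23 to 11.66 on normal salt, with 9 lower on low salt. Arterial endothelial markers, 9 of 10 measured, averaged 9.23 to 9.47 on low salt and 9.42 to 9.52 on normal salt, with 6 lower. In each of these lists 0 genes passed, and their part in the values of Gja4 and Gja5 was not tested.

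Gjc1 encodes the connexin of the nodes and of the developing heart. It read 8.85, 9.10, 8.94 and 9.30 in low salt mice 1 to 4, against 9.22, 9.35, 9.17 and 9.10 in normal salt mice 1 to 4. The groups overlapped, through low salt mouse 4. The diets differed by -0.16 ± 0.14 on the log2 scale (SE; limma adjusted p = 0.672), with a 95% interval of -0.49 to 0.16. It was -0.30 in the Cy3 mice and -0.02 in the Cy5 mice. The probe lies at chr11:102661010-102661069 (mm9, minus strand).

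**Figure D3:**
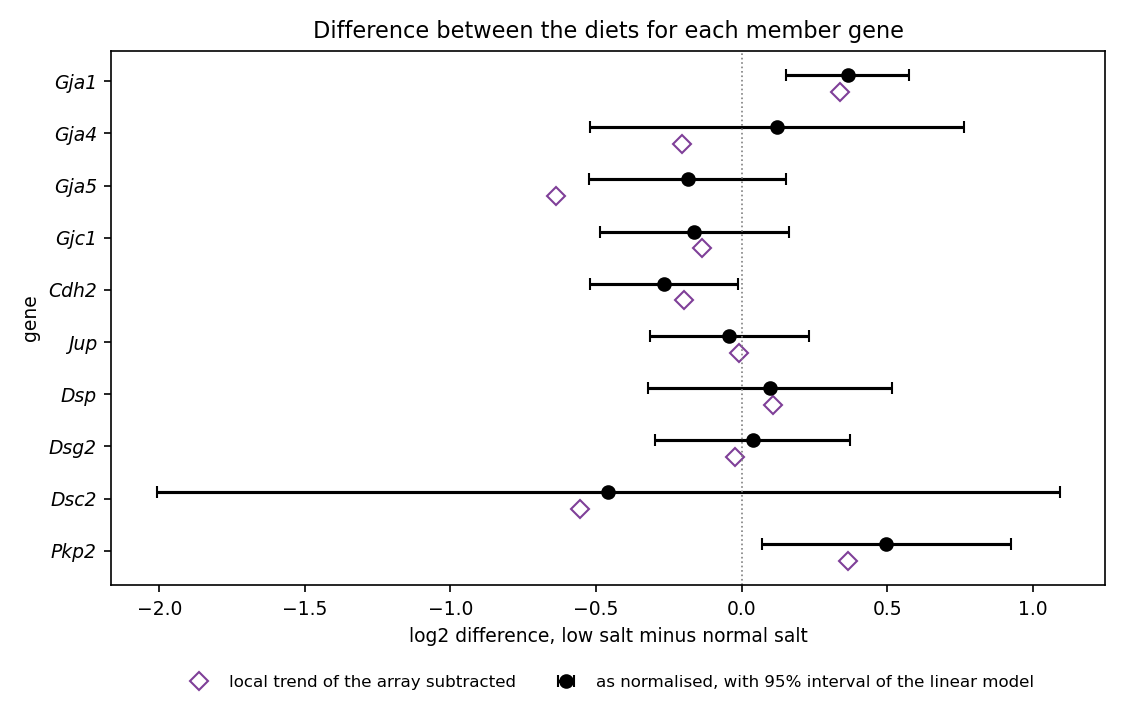
Log2 difference, low salt minus normal salt, of each gene with the 95% interval of the linear model (filled circles), and the same difference with the local trend of the array subtracted (open diamonds). The intervals of Gja1, Cdh2 and Pkp2 leave out 0 before adjustment over all genes, and that of Dsc2 is the widest. Gja4 and, close to 0, Dsg2 change sign when the trend is subtracted.

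Cdh2 encodes N-cadherin, the adhesion protein of the cardiac adherens junction. The brighter of its probes read 13.72, 14.04, 13.65 and 13.74 in low salt mice 1 to 4, against 13.92, 14.11, 14.03 and 14.16 in normal salt mice 1 to 4. Low salt mice 1, 3 and 4 lay below every normal salt mouse, and low salt mouse 2 lay among them. This probe gave a log2 difference of -0.27 ± 0.11 (SE; limma adjusted p = 0.424), with a 95% interval of -0.52 to -0.01.

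A second Cdh2 probe, whose start lies 173 bases away, went the other way. It read 13.38, 13.55, 13.37 and 13.37 in low salt mice 1 to 4, against 12.88, 12.96, 13.56 and 13.62 in normal salt mice 1 to 4, a log2 difference of 0.16. Normal salt mice 1 and 2, which shared an array, lay below all low salt mice, and normal salt mice 3 and 4 above all of them. The local trend at this spot was -0.38 in both normal salt mice 1 and 2, and 0.27 and 0.24 in normal salt mice 3 and 4. With it subtracted the second probe read 13.37, 13.50, 13.32 and 13.29 on low salt and 13.26, 13.34, 13.29 and 13.38 on normal salt, a difference of 0.05, against -0.20 for the first probe. Averaged over both probes Cdh2 differed by -0.05 (limma adjusted p = 0.899).

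**Figure D4:**
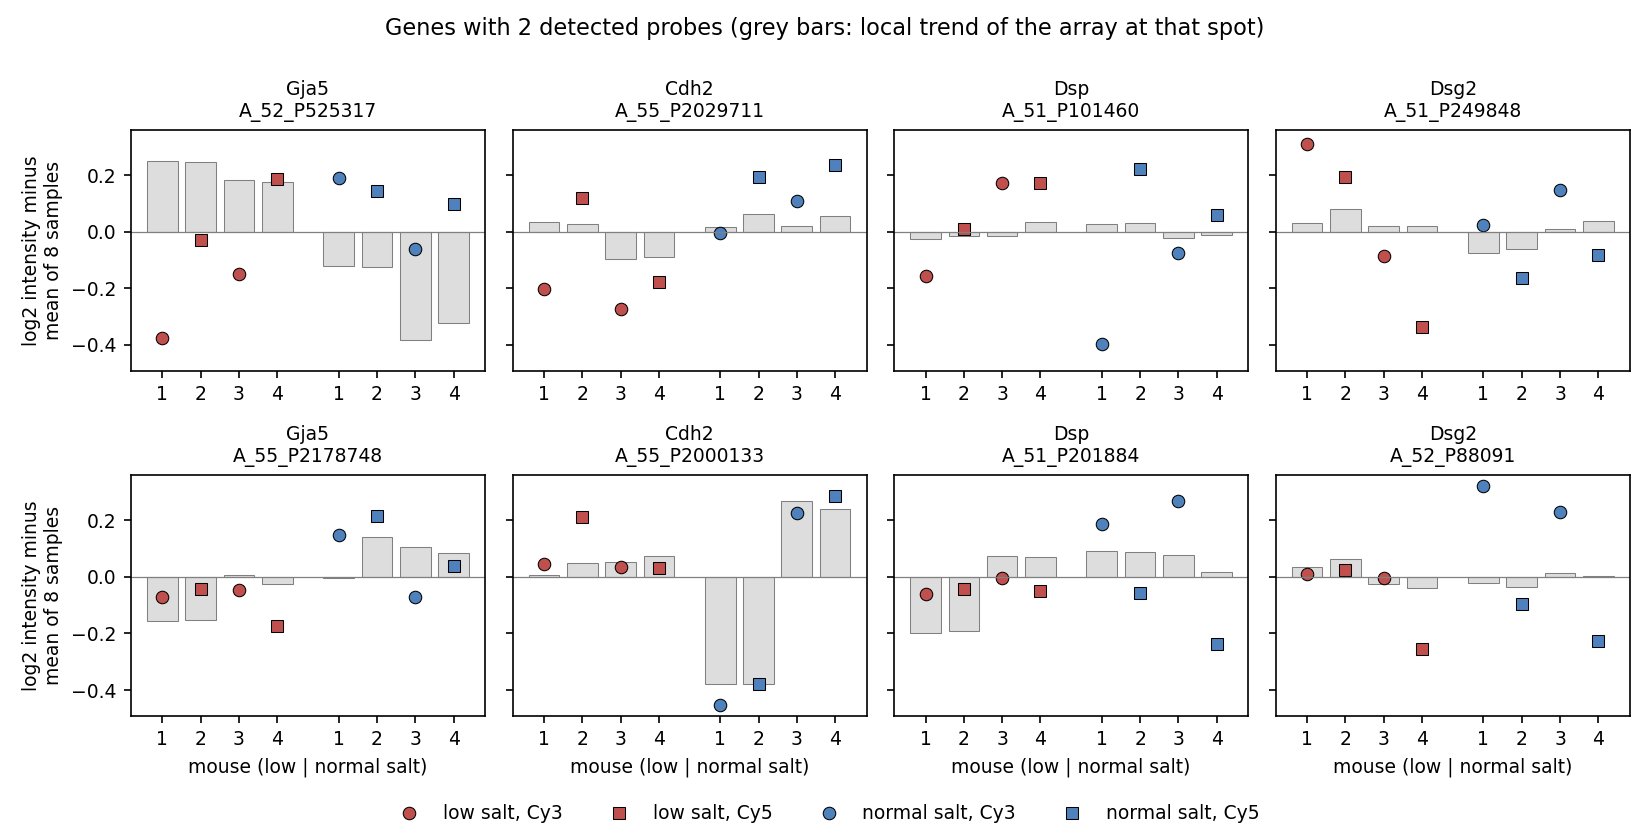
Log2 intensity less the mean of 8 samples for both detected probes of Gja5, Cdh2, Dsp and Dsg2, the probe that stands for the gene above and the other below, with the local trend at that spot as grey bars; circles are Cy3 and squares Cy5, low salt left of normal salt. For the second Cdh2 probe the points of normal salt mice follow the bars, and for the first Gja5 probe the points lie on the other side of 0 from the bars except in low salt mouse 4 and normal salt mouse 3.

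Jup encodes plakoglobin, found in both adherens junctions and desmosomes. Low salt mice 1 to 4 read 7.19, 7.62, 7.18 and 7.38, against 7.35, 7.43, 7.25 and 7.51 in normal salt mice 1 to 4. The groups overlapped over nearly their whole range. Low salt minus normal salt was -0.04 ± 0.12 (SE; limma adjusted p = 0.911), with a 95% interval of -0.31 to 0.23. Its probe lies at chr11:100238038-100238097 (mm9, minus strand). It was dim, with a mean signal before correction of 128 to 179 on its 1 spot, so a difference may be understated.

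Dsp encodes desmoplakin, which ties the desmosome to desmin filaments. Its brighter probe, on 10 spots, lies at chr13:38290121-38290180 (mm9, plus strand). It read 13.61, 13.77, 13.94 and 13.94 in low salt mice 1 to 4, against 13.37, 13.98, 13.69 and 13.82 in normal salt mice 1 to 4. Normal salt held both the lowest and the highest mouse, which shared an array. On the log2 scale the diets differed by 0.10 ± 0.18 (SE; limma adjusted p = 0.855), with a 95% interval of -0.32 to 0.52, and it was 0.24 in the Cy3 mice and -0.05 in the Cy5 mice. Of its 9 fully unflagged spots 7 read higher on low salt and 2 lower, between -0.16 and 0.28, and in 0 of the 9 were the groups apart. A second Dsp probe, starting 4641 bases away, read 8.66, 8.68, 8.72 and 8.67 in low salt mice 1 to 4, against 8.91, 8.66, 8.99 and 8.48 in normal salt mice 1 to 4. Its 4 low salt values lay inside the normal salt range, with a difference of -0.08.

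Dsg2 encodes the main desmoglein of heart muscle, a cadherin of the desmosome. Its brighter probe read 9.88, 9.76, 9.48 and 9.23 in low salt mice 1 to 4, against 9.59, 9.41, 9.72 and 9.49 in normal salt mice 1 to 4. The highest were low salt mice 1 and 2, from one array, and low salt mouse 4 was the lowest of all. The fit gave a log2 difference of 0.04 ± 0.15 (SE; limma adjusted p = 0.935), with a 95% interval of -0.30 to 0.37. A second probe read 7.13, 7.14, 7.11 and 6.86 in low salt mice 1 to 4, against 7.44, 7.02, 7.35 and 6.89 in normal salt mice 1 to 4, a difference of -0.11.

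Dsc2 encodes the matching desmocollin. It read 9.70, 9.81, 9.25 and 7.29 in low salt mice 1 to 4, against 9.49, 9.37, 9.45 and 9.58 in normal salt mice 1 to 4. Low salt mouse 4 lay far below the other low salt mice, while the normal salt mice lay within a narrow band. The log2 difference was -0.46 ± 0.68 (SE; limma adjusted p = 0.816), with a 95% interval of -2.01 to 1.09. Without low salt mouse 4 it was 0.08 (limma adjusted p = 0.875). The spot carried no flag in that mouse. Its mean signal before correction was 181 in low salt mouse 4, against 596 in low salt mouse 3, which was read on the same spot in the other dye, and 846 in low salt mouse 2 and 819 and 914 in normal salt mice 2 and 4, which were read in the same dye. Dsc2 was read by 1 probe on 1 spot, so no second reading stands beside it.

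Pkp2 encodes the plakophilin of heart desmosomes, which links the desmosomal cadherins to desmoplakin. Its probe lies at chr16:16272648-16272707 (mm9, plus strand). Its first 30 bases, shown because its groups did not overlap, run 5′ to 3′.
Pkp2: tgagtgtgcaccggaggaacacctgagaaa

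Pkp2 read 13.16, 13.31, 13.18 and 13.26 in low salt mice 1 to 4, against 12.32, 12.48, 13.06 and 13.05 in normal salt mice 1 to 4. All low salt mice lay above all normal salt mice, narrowly above mice 3 and 4 and widely above mice 1 and 2. The means were 13.23 ± 0.07 on low salt and 12.73 ± 0.38 on normal salt (SD, n = 4 each). Low salt was 0.50 ± 0.19 higher on the log2 scale (SE; limma adjusted p = 0.379), or 1.41-fold, with a 95% interval of 1.05-fold to 1.90-fold. The size of the difference followed the normal salt array it was set against. Set against normal salt mice 1 and 2 alone it was 0.82 and passed (limma adjusted p = 0.0318), and against normal salt mice 3 and 4 alone it was 0.17 (limma adjusted p = 0.730). A single array stands for normal salt in each of these fits, where diet and array cannot be told apart. At this spot the local trend was -0.21 and -0.19 in normal salt mice 1 and 2, against 0.02 to 0.12 in the other samples. With it subtracted Pkp2 read 13.14, 13.28, 13.06 and 13.16 on low salt and 12.53, 12.67, 12.97 and 12.99 on normal salt, still without overlap, and the difference was 0.37 (limma adjusted p = 0.258). For subtracted values the share of all genes without overlap is not given here.

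Among 70 other genes of the disc, in 4 lists, 47 passed the filter on dim probes and 0 of the 47 differed past the threshold, against 0.84% of all genes. An unadjusted p under 0.05 was seen for 9 of the 47, against 11.3% of all genes. All 4 low salt mice lay above all normal salt mice for 7 of the 47, against 8.03% of all genes, and below them for 3, against 4.79%. The median log2 difference of the 47 was 0.05. Each sentence that follows gives log2 differences, low salt minus normal salt.

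Of the other connexins and pannexins 5 of 19 were measured, all 5 with a higher value on low salt and a median of 0.17. They went from 0.012 to 0.28 with 0 past the threshold, and 9554 of all 18093 genes tested were higher on low salt. Gja10 read 0.28 (limma adjusted p = 0.430) and Gjb1, the connexin gene of liver and Schwann cells, 0.17 (limma adjusted p = 0.668). For Gja10 all low salt mice lay above all normal salt mice, with means of 7.52 ± 0.10 on low salt and 7.24 ± 0.11 on normal salt (SD, n = 4 each).

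Of the other desmosomal genes 8 of 15 were measured, 4 higher and 4 lower, with a median of -0.06. Evpl, the envoplakin gene of epithelial desmosomes, read -0.57 (limma adjusted p = 0.238) with all low salt mice below all normal salt mice, in a part with a local difference of -0.28. Des, the desmin gene, read 0.25 and Ppl, the periplakin gene, -0.22, with limma adjusted p of 0.479 and 0.491.

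Of the adherens junction genes 10 of 12 were measured, 6 higher and 4 lower, with a median of 0.05. Vcl, the vinculin gene, was the 1 gene of the 47 past 1.5-fold in each dye (3.29% of all genes were), at 0.73 (limma adjusted p = 0.239). Vcl read 10.05, 10.45, 10.85 and 10.94 in low salt mice 1 to 4, against 9.55, 10.11, 9.75 and 9.96 in normal salt mice 1 to 4, and the groups overlapped by low salt mouse 1 and normal salt mouse 2. Its local difference was 0.204, past the 0.2 that marks an uneven part. Whether Vcl stays past 1.5-fold with the local trend subtracted is not given here. Cdh13, the gene of a cadherin held to the membrane by a lipid anchor, read 0.53 (limma adjusted p = 0.199), with a local difference of 0.47 at its spot. Ctnna3, which encodes the alpha-catenin that joins N-cadherin complexes to desmosomes in heart muscle, read -0.29 (limma adjusted p = 0.411), with all low salt mice below all normal salt mice.

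Of the scaffold, anchor and channel partners 24 of 24 were measured, 12 higher and 12 lower, with a median of 0.0023. Igsf1, an immunoglobulin superfamily gene whose place at the intercalated disc is uncertain, read 0.45 (limma adjusted p = 0.162), and the local difference at its spot was 0.40. Lrrfip2, the 1 further gene with all low salt mice below all normal salt mice besides Evpl and Ctnna3, read -0.15 and was named after its values were seen.

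**Figure D5:**
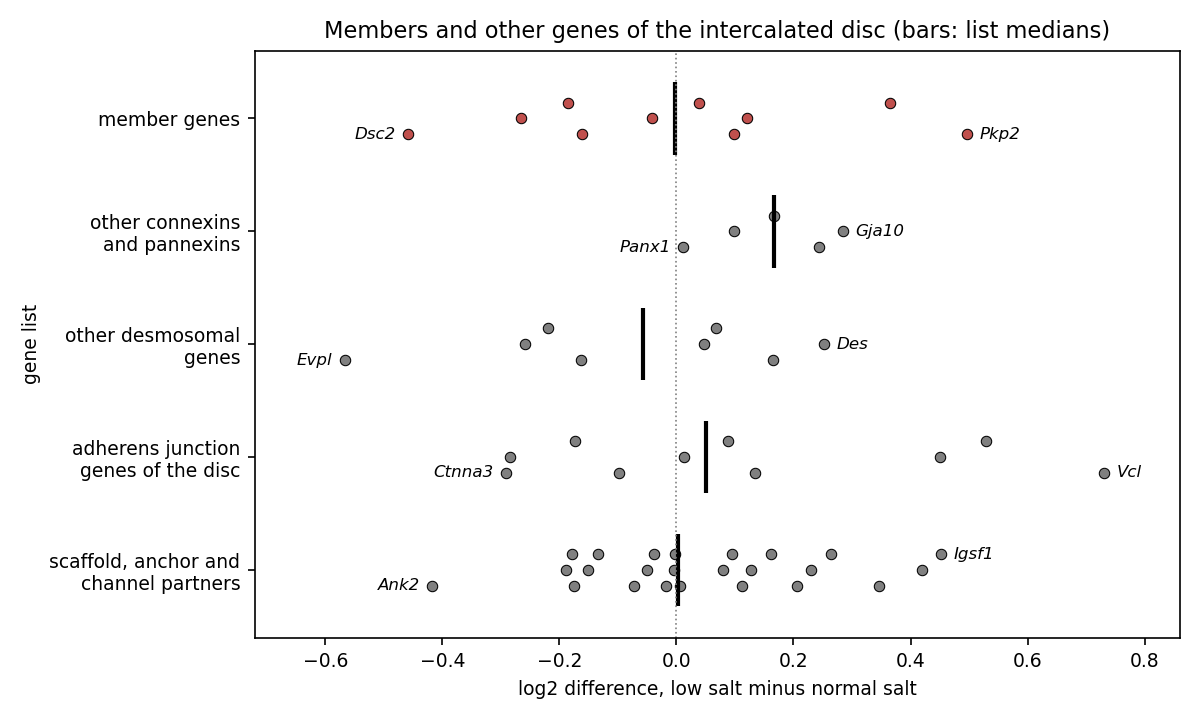
Log2 difference, low salt minus normal salt, of the 10 genes (red) and of the measured genes of the 4 lists of other disc genes (grey), with list medians as black bars and the lowest and highest gene of each row named. All 5 measured other connexins and pannexins lie above 0, and the other rows spread to both sides of 0.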

How the data were processed

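The scanner tables give spot and local background intensity per channel, per the file headers, as read by Agilent Feature Extraction 11.5.1.1 (protocol GE2_1105_Oct12; design on mm9). Both samples of an array have identical tables, so each was read in its own dye. The deposited series table of values was not used, because its rows could not be tied to spots. Signal was corrected by normexp (offset 50), with the channel median in place of a flagged background, normalised by loess and Aquantile, and turned into log2 values from the deposited intensity, in limma 3.58.1 (R 4.3.3, statmod 1.5.0). Flagged and control spots were left out and spots of a probe averaged. A probe had to stand well above background in 4 or more samples, and the brightest stands for a gene. Probe names follow RefSeq accessions where the table given holds them (27508 probes), with 3544 named by symbol, 404 by synonym and 7973 as in the files.

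The limma fit had fixed effects of diet and dye, and array entered as a random block (correlation 0.554), with Benjamini-Hochberg adjustment over all 18093 genes and a threshold of 0.05. The test was checked on simulated data. Once diet and dye were removed, same-numbered mice correlated at 0.210 for numbers 1 and 3 and at 0.107 for numbers 2 and 4. Only 2 mice share a diet and dye, so the numbers of such a pair give the same value. The mice of such a pair also lie on different arrays, so pairing and array cannot be told apart in these values. The labels name no pairing, and each number also fixes a dye, so any pairing rests on the data alone. The replicate block was fitted as the paired alternative. Genes and lists were chosen with earlier results of these data known. All 10 genes are named, and of each list of other disc genes the 3 with the smallest p, of which some are not reported here. Alternatives are in the closing section.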

Additional observations from a re-analysis of the deposited data

Results flagged for a closer look

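Of 32 groups of 4 values, the 2 diets for 16 probes, 2 held a value far from the other 3, and chance flags about 1 in 20 groups. The second Cdh2 probe read 13.55 in low salt mouse 2, against 13.37 to 13.38 in the other low salt mice. The second Dsg2 probe read 6.86 in low salt mouse 4, against 7.11 to 7.14 in the other low salt mice. The Dsc2 value of low salt mouse 4, 7.29, fell short of that limit, with a gap of 0.781 of the range of its group.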

How the results depend on the processing

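Each of the 10 genes was refitted under 27 alternatives, and the calls below are those of limma. Gja1, Gja5, Gjc1, Cdh2 and Pkp2 kept their direction in all 27, with ranges of 0.29 to 0.44, -0.80 to -0.04, -0.36 to -0.02, -0.36 to -0.05 and 0.17 to 0.82. The fits with no array block, with a replicate block or with arrays averaged left every difference as it was, so they could not reverse one. The same held for changes of the filter on dim probes and for every probe tested on its own. Read alone, the second Cdh2 probe was 0.16 higher on low salt. A call was gained in 1 alternative each for Gja1 and Pkp2. With no array block Gja1 read 0.36 and passed, 1 gene of the 10, against 628 of all 18093 genes. With normal salt mice 3 and 4 left out Pkp2 read 0.82 and passed, 1 gene of the 10, against 240 of all 18093 genes. Pkp2 was then also the 1 gene of the 10 at 1.5-fold in both dyes. The share of all genes at 1.5-fold in that fit is not given here. The other genes, all near 0 or widely spread, reversed as follows. With the scanner's processed signal Gja4 read -0.33, with the local trend subtracted Gja4 read -0.21 and Dsg2 -0.022, with no normalization between arrays Dsg2 read -0.011, and with probes averaged Dsg2 read -0.038. In Cy3 samples alone Gja4 read -0.12 and Dsc2 0.0095, and in Cy5 samples alone Jup read 0.028 and Dsp -0.048. With low salt mice 1 and 2 left out as an array Gja4 read -0.052 and Dsg2 -0.19. With low salt mice 3 and 4 left out Jup read 0.018, Dsp -0.024 and Dsc2 0.28. With normal salt mice 1 and 2 left out Dsg2 read -0.014, and with normal salt mice 3 and 4 left out Gja4 read -0.20. Leaving out 1 mouse gave -0.10 to 0.0050 for Jup, -0.018 to 0.20 for Dsp, -0.017 to 0.089 for Dsg2 and -0.77 to 0.079 for Dsc2. The cause of these reversals was not tested.

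Over all genes, 152 calls became 36 with the processed signal, 51 with the local trend subtracted, 628 with no array block and 237 with the replicate block, which changed no call among the 10 genes. Leaving out an array gave 82 (low salt mice 1 and 2), 1106 (low salt mice 3 and 4), 267 (normal salt mice 1 and 2) and 240 (normal salt mice 3 and 4). They were 56 to 128 without 1 mouse. Calls were 0 with no normalization between arrays, with arrays averaged, in Cy3 alone and in Cy5 alone, with an unadjusted p under 0.05 for 775, 1571, 1864 and 1256 genes. The split of higher against lower calls was 145 to 7, against 30 to 6 with the processed signal, 34 to 17 with the local trend subtracted and 451 to 655 with low salt mice 3 and 4 left out. Of the other disc genes 1 passed with no array block, Igsf1, and 5 with low salt mice 3 and 4 left out, among them Ank2, Cdh13, Evpl and Igsf1. Low salt has 1 array in that fit, and diet and array cannot be told apart there. With 4 arrays, precision is limited by their number, and dim probes near background understate a difference.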
